A study of Mus musculus with 4 samples.

Results

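Integrins and laminins are the genes of cell attachment to the basement membrane. They were taken as every gene whose symbol begins with Itga, Itgb or Lam followed by a, b or c and a digit. The pattern matched 42 of the 32285 genes counted, and 3 matches that encode other proteins (Itgb1bp1, Itgb1bp2 and Itgbl1) were left out. The 39 members were 18 integrin alpha subunits, 9 integrin beta subunits, 5 laminin alpha chains, 3 laminin beta chains, 3 laminin gamma chains and Itgb3bp, which the pattern takes in although its product is a centromere protein and not an integrin subunit. Their symbols and not their values chose them, but the family itself was picked with earlier results of these data known. None of the members was a marker used to name a class of nuclei.

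Nuclei of whole lungs were sequenced from 4 mice aged 8 to 9 weeks on a C57/BL6J background, 2 WT and 2 VEcad-TRF2DN-Tg. The study's methods give the mice as male, and its account of this experiment states that both genotypes, the WT mice included, had been exposed to chronic hypoxia. In the Tg mice the VE-cadherin promoter drives a dominant-negative TRF2, a protein that protects telomeres, so that the transgene is on in ECs of every vascular bed and not in the lung alone, and the ECs become senescent prematurely. The transgene itself was not among the genes counted, so the labels could not be checked against it.

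An integrin is a pair of 1 alpha and 1 beta subunit in the cell membrane that binds the extracellular matrix or another cell outside and the actin cytoskeleton inside. Itgb1 pairs with most alpha subunits of tissue cells, Itgb2 with those of leukocytes, and Itgb4 with Itga6 alone. A laminin is a cross-shaped trimer of 1 alpha, 1 beta and 1 gamma chain that is secreted and polymerizes into the basement membrane. In the lung, basement membranes lie under the alveolar epithelium and around capillaries, and where type 1 cells meet capillaries the membranes of both are fused into the thin layer through which gas diffuses.

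Barcodes with at least 1500 UMIs were named by marker lists for cell classes, which is to say that a pericyte below is a pericyte-like nucleus. A class was found for 3970 to 9046 of the 25269 to 44000 such barcodes per mouse, more in each Tg than in each WT mouse. The other barcodes of that depth had markers of several classes or, with 18182 to 34087 per mouse, no class. The summed UMIs of barcodes with 300 to 800 UMIs served as empty droplets, the level of free RNA, with 1949156 to 12600100 UMIs per mouse. Barcodes with no class may be droplets without a nucleus too, and whether those of 300 to 800 UMIs stand for all empty droplets, on which every fold over the empty droplets rests, was not tested. Between 5 and 13 barcode sequences were shared by any 2 of the mice, at most 0.274% of the smaller set. There were 14 classes with at least 20 nuclei in every mouse. Alveolar type 2 cells and alveolar fibroblasts did not reach that number, and their values come from marker lists that were split and shortened after the data had been seen. Smooth muscle, cardiac muscle, club cells, neutrophils and adventitial fibroblasts did not reach it either and were not tested. Levels are given as CPM, the UMIs of a gene scaled to 1000000 UMIs of the class in that mouse, 4 values being given in the order WT 1, WT 2, Tg 1 and Tg 2. In a nucleus, long genes give more UMIs through their introns, so a level is compared between classes and mice and not between genes.

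The members summed to 259972 UMIs over all named nuclei, and 38 of 39 had at least 100. Of the 34 members with enough UMIs for the model of all classes, 31 were higher in their highest class than in the empty droplets, with adjusted p values from 1.83e-32 (Lama3) to 0.0353 (Itgb2) by edgeR's quasi-likelihood test. That class was picked by its level among 14, so this count is a description. Over all 14 classes 104 of 476 pairs of a member and a class were higher than the empty droplets, 21.8%, the same share as the 21.8% of all genes tested, and 155 pairs were lower, 32.6%, beside 28.6%. Against the mean of the other classes 95 of the 476 pairs were higher, 20%, beside 12.5% of all genes, and 104 were lower, 21.8%, beside 9.62%. With the split lists, 14 of 70 pairs in alveolar fibroblasts and type 2 cells were above the empty droplets and 17 of 70 above the other classes, beside 24.2% and 17% of all genes. Of the 34, 8 were above the empty droplets in 1 class, 9 in 5 or more, and 3 in none. The shares of all genes in these groups were not counted, so these numbers too are a description.

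**Figure D1:**
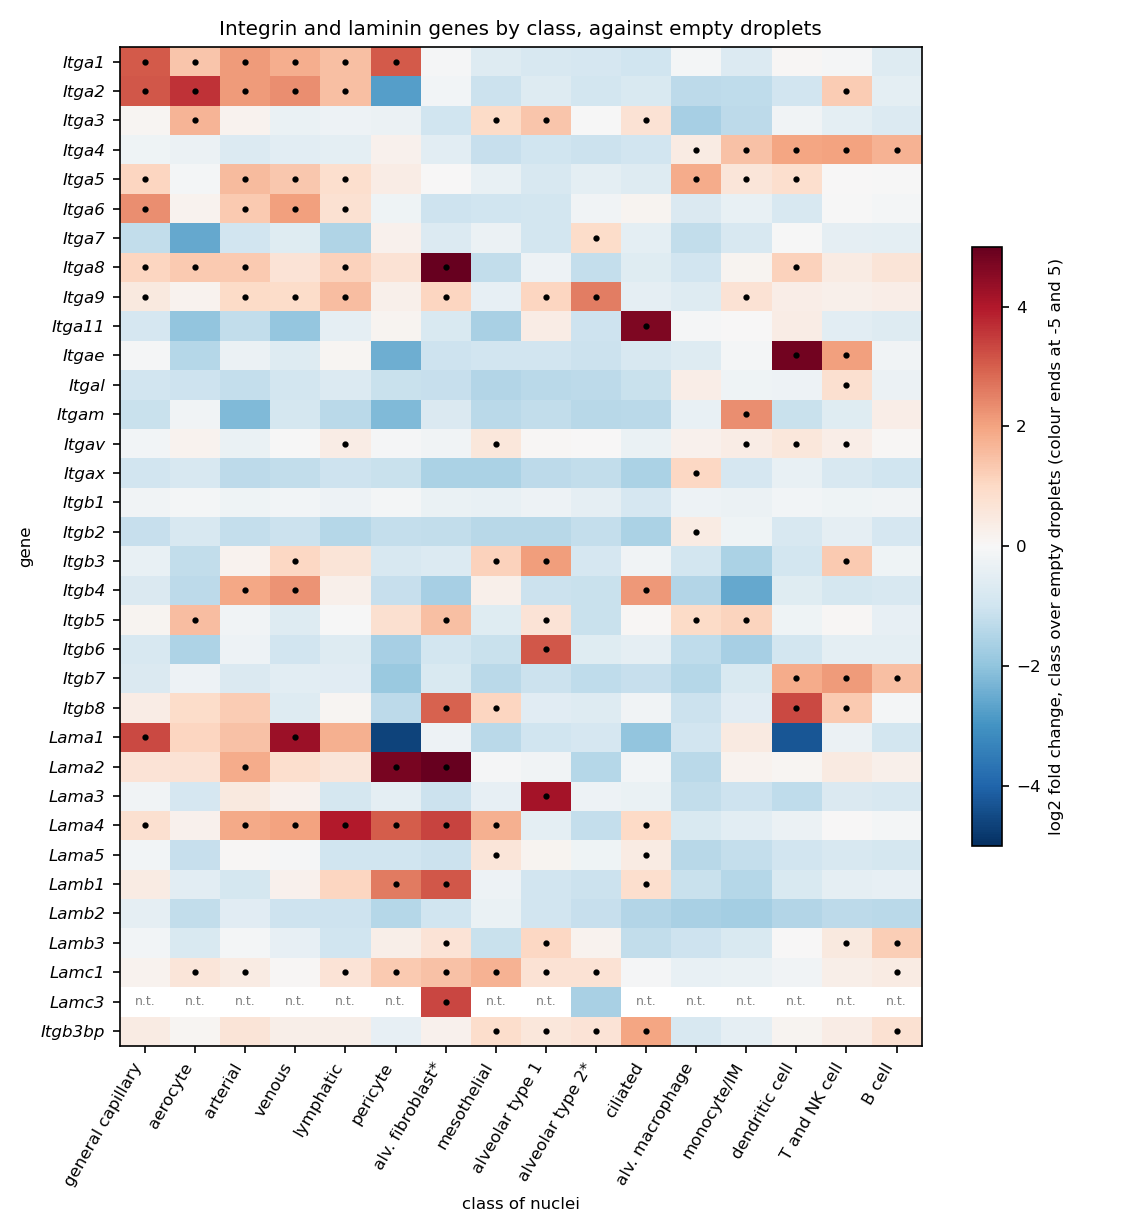
Heat map of the log2 fold change of the members' UMIs in each class over the empty droplets of the same 4 mice (columns, classes; rows, members; colors saturate at both ends of the color bar; dots, higher with an adjusted p under 0.05; n.t., not tested; asterisks, the 2 classes named by split marker lists). Lama3 and Itgb6 carry their strongest colour in alveolar type 1 cells, Lama2 in pericytes and alveolar fibroblasts, Itga11 in ciliated cells and Itgae in dendritic cells.

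Among the alpha subunits that pair with Itgb1, Itga1 and Itga2, the collagen-binding subunits, were highest in the vasculature. Itga1 stood at 1492, 967, 1199 and 954 CPM in pericytes and at 1159, 1334, 1038 and 871 in general capillary ECs, against 155, 136, 90.2 and 124 in the empty droplets. The 2 classes overlapped, and both were far above the free RNA in every mouse. In pericytes Itga1 was 3.08 ± 0.19 (SE) above the empty droplets on the log2 scale, and its gene overlaps Pelo, an intronless gene on the same strand. Itga2 was at 306, 226, 150 and 133 in aerocytes, the second type of capillary EC, and at 158, 149, 119 and 123 in general capillary ECs, against 9.13 to 25.7 in the empty droplets. Its levels in aerocytes and general capillary ECs overlapped (log2 fold change over the empty droplets 3.62 ± 0.22 in aerocytes). Itga11, another collagen-binding subunit, was a different case. It stood at 79.3, 51.7, 226 and 124 in ciliated cells of the airway and at 2.57 to 5.94 in the empty droplets, with a log2 fold change of 4.65 ± 0.24, and none of the other classes overlapped with ciliated cells.

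The laminin receptor subunits Itga3, Itga6 and Itga7 had separate patterns. Itga6 was at 499, 496, 387 and 379 in general capillary ECs and at 447, 268, 354 and 363 in venous ECs, but at 140, 107, 83.6 and 64.7 in aerocytes. General capillary ECs were above aerocytes in every mouse, and their log2 fold change over the empty droplets was 2.33 ± 0.16. Itga3 had the opposite order, with 91.7, 169, 201 and 137 in aerocytes (log2 fold change over the empty droplets 1.70 ± 0.19) and 91.8, 92.7, 105 and 103 in alveolar type 1 cells. Nuclei of smooth and cardiac muscle were too few to be tested, and Itga7, best known from muscle, was low in every class that was. In the 14 classes it was above the empty droplets in none, and with the split lists it was 0.90 ± 0.22 above them in alveolar type 2 cells, at 35.6, 25.6, 14 and 22 CPM.

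Of the receptors for fibronectin, nephronectin and related ligands, Itga8, whose ligand nephronectin is a basement membrane protein, was high in alveolar fibroblasts, where it stood at 1146, 1034, 1066 and 942 CPM, against 24.6 to 35.4 in the empty droplets. The 4 fibroblast values lay close together, and the log2 fold change was 5.20 ± 0.22 over the empty droplets and 5.41 ± 0.11 over the other classes. Among the 14 classes its highest was dendritic cells, in which the test against the other classes missed the threshold (log2 fold change 0.81 ± 0.31, edgeR adjusted p = 0.0632). Itga9 was at 1264, 1745, 1275 and 1412 in alveolar type 2 cells and at 1129, 810, 541 and 710 in lymphatic ECs, where it is known to be required for valves. Its empty droplets were high as well, at 383, 368, 122 and 163. The log2 fold changes over the empty droplets were 2.55 ± 0.17 and 1.54 ± 0.18. Itga5, the classical fibronectin receptor, was highest in alveolar macrophages at 85.7, 87.3, 76.8 and 135 (log2 fold change over the empty droplets 1.85 ± 0.16), and arterial ECs followed at 53.1, 60.2, 107 and 88.9. Itgav was only 0.58 ± 0.14 above the empty droplets in its highest class, dendritic cells, at 160, 170, 103 and 173, and without WT 2 or without Tg 2 its log2 fold change over the other classes, 0.42 and 0.39, lost significance (edgeR adjusted p = 0.0595 and 0.124). Itga10 reached only a mean of 6.43 CPM, in venous ECs, and had too few UMIs for the model.

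Several leukocyte alpha subunits had their highest level in an immune class. Itgae, which with Itgb7 binds E-cadherin and keeps leukocytes in epithelia, was at 403, 329, 352 and 369 in dendritic cells, at 56.6, 49.8, 41.5 and 74.5 in T and NK cells and at a mean of 13.1 in the empty droplets. The dendritic cells of every mouse were above the T and NK cells of every mouse, with a log2 fold change of 4.82 ± 0.23 over the empty droplets. Itgam, of the complement receptor of myeloid cells, was at 101, 213, 113 and 153 in monocytes and interstitial macrophages and at 15.1, 45.7, 9.22 and 11.2 in alveolar macrophages. Itgax had the reverse order, at 279, 206, 151 and 202 in alveolar macrophages and 85.6, 41.7, 68.8 and 85.9 in monocytes and interstitial macrophages. Both orders held in each mouse without overlap. Their log2 fold changes over the empty droplets were 2.33 ± 0.22 for Itgam and 1.04 ± 0.15 for Itgax. Itgal, the alpha subunit of the lymphocyte receptor for ICAMs, was highest in T and NK cells at 184, 204, 128 and 172, only 0.81 ± 0.17 above the empty droplets. Itga4, which pairs with Itgb1 or Itgb7 to bind VCAM-1, was shared by T and NK cells (354, 450, 370 and 416), dendritic cells (305, 401, 319 and 480) and B cells (172, 454, 308 and 350), which overlapped, and it was 2.02 ± 0.16 above the empty droplets in T and NK cells. Itga2b, the platelet subunit, had 229 UMIs in all and Itgad 93, too few for the model.

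Among the beta subunits, Itgb1, the common partner, was at 429, 422, 351 and 261 in pericytes and at 283, 416, 390 and 353 in the empty droplets, and no class was above the empty droplets (pericytes, log2 fold change -0.09 ± 0.16, edgeR adjusted p = 0.744). Itgb2, the leukocyte partner, was highest in alveolar macrophages at 109, 129, 126 and 195 but stood at 51.1, 126, 113 and 141 in the empty droplets, so that its log2 fold change was 0.40 ± 0.17. Itgb7 was at 69, 94.5, 70.2 and 80.2 in T and NK cells (log2 fold change over the empty droplets 2.12 ± 0.19), with dendritic cells overlapping. The epithelial subunit Itgb6, which with Itgav activates TGF-beta, was at 401, 231, 215 and 247 in alveolar type 1 cells and at 22.7 to 61 in the empty droplets. The WT 1 mouse was the highest, and every mouse's type 1 cells were above every mouse's level in the next class, B cells (log2 fold change over the empty droplets 3.10 ± 0.14). Itgb3 was highest in type 1 cells too, at 87.1, 59.4, 50.3 and 46.8 (2.10 ± 0.17), and overlapped T and NK cells.

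Itgb5, the vitronectin receptor subunit, was at 100, 84.6, 117 and 160 in aerocytes (log2 fold change over the empty droplets 1.55 ± 0.23). Itgb4, the subunit of hemidesmosomes, was at 85.3, 27.8, 84.5 and 28.5 in venous ECs and at 85, 8.6, 82.9 and 32.5 in arterial ECs. The WT 1 and Tg 1 mice were high and the WT 2 and Tg 2 mice low in both EC classes, while ciliated cells held 38.4, 34.7, 68.7 and 49.3 (log2 fold change over the empty droplets in venous ECs 2.24 ± 0.27). Itgb8, which activates TGF-beta with Itgav, was at 48.6, 31.9, 65 and 46.4 in dendritic cells (3.29 ± 0.41) and at 50.4, 70.4, 15.5 and 21.3 in alveolar fibroblasts (2.94 ± 0.33). Itgb2l had 250 UMIs in all. Itgb3bp, the centromere protein, was at 66.5, 51.3, 173 and 112 in ciliated cells (log2 fold change over the empty droplets 1.98 ± 0.18), and its gene overlaps Efcab7 and Pgm1 on the other strand.

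Laminin alpha chains, which carry the sites that integrins bind, were divided among the lineages. Lama3, the epithelial chain, was at 845, 787, 743 and 743 CPM in alveolar type 1 cells, a mean of 780 ± 48.5 (SD, n = 4), against 70.5, 74.2, 32.1 and 33.3 in the empty droplets. No other class overlapped, and the log2 fold change was 4.15 ± 0.15 over the empty droplets and 4.72 ± 0.08 over the other classes. Lama2, the chain that is lost in a congenital muscular dystrophy, was mesenchymal, at 1022, 812, 992 and 507 in pericytes (4.74 ± 0.36) and 1126, 977, 527 and 696 in alveolar fibroblasts (4.97 ± 0.23). Lama4, a chain of vascular basement membranes, was highest in lymphatic ECs at 883, 719, 519 and 464 (3.95 ± 0.21), followed by pericytes at 368, 349, 310 and 268, with alveolar fibroblasts at 484, 451, 286 and 336. Lama1, best known from embryonic basement membranes, was scarce at 304 UMIs in all. It was at 53.1, 33.9, 13.3 and 25.5 in venous ECs and 41.3, 10.7, 8.06 and 9.3 in general capillary ECs, but at a mean of 1.65 in the empty droplets (4.27 ± 0.43). Lama5, the widespread chain of adult basement membranes, was at 107, 59, 107 and 83.7 in mesothelial cells and only 0.60 ± 0.15 above the empty droplets.

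The laminin beta and gamma chains followed in part. Lamb3, which joins Lama3 in an epithelial laminin, was at 35.9, 30.4, 34.2 and 39.1 in type 1 cells but was highest in B cells, at 41.6, 36.1, 71.3 and 50.8 (log2 fold change over the empty droplets 1.22 ± 0.18), and its gene overlaps Hsd11b1 and G0s2 on the other strand. Lamb1 was at 97.9, 104, 100 and 94.9 in alveolar fibroblasts and 71.5, 48.7, 82.7 and 89.4 in pericytes (pericytes 2.59 ± 0.45). Lamc1, the common gamma chain, was at 300, 249, 239 and 271 in mesothelial cells (1.72 ± 0.13), with 7 classes above the empty droplets. Lamc3 had 239 UMIs over all named nuclei, and in alveolar fibroblasts it stood at 18.7, 24.8, 29.6 and 15.5 (3.34 ± 0.40). Lamb2 was above the empty droplets in no class. Its highest class, mesothelial cells, was 0.88 ± 0.16 above the other classes and overlapped the next.

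Neighboring classes of a lineage were also compared. Between the 2 capillary EC types, 5 of 34 members differed, beside 4.18% of all genes. Aerocytes were lower than general capillary ECs in Itga6 (log2 fold change -2.15 ± 0.21), Itga1 (-1.70 ± 0.19) and Itga5 (-1.17 ± 0.31) and higher in Itga3 (1.61 ± 0.22) and Itgb5 (1.40 ± 0.26). Alveolar macrophages differed from monocytes and interstitial macrophages in 5 of 34 members (14.7%), near the 14.2% of all genes. They were lower in Itgam (-2.72 ± 0.27), Itga9 (-1.36 ± 0.21) and Itga4 (-1.05 ± 0.21) and higher in Itgax (1.88 ± 0.22) and Itga5 (1.24 ± 0.24), and these macrophages are commonly sorted by low Itgam and high Itgax. Adjusted p values of the 10 differences ran up to 0.0135 (Itga5 in the capillary ECs) by edgeR.

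With the split lists, alveolar type 1 and type 2 cells differed in 13 of 35 members, beside 29.5% of all genes. Type 1 cells had the higher level of Lama3 (log2 fold change 4.32 ± 0.16), Itgb6 (3.65 ± 0.15), Itgb3 (2.88 ± 0.18), Itgb5 (1.71 ± 0.16), Itga11 (1.37 ± 0.31), Itga3 (1.33 ± 0.14), Lamb3 (0.80 ± 0.18) and Lama2 (0.73 ± 0.27). Type 2 cells had the higher level of Itga7 (-1.91 ± 0.23), Itga9 (-1.58 ± 0.17), Itga6 (-0.80 ± 0.16) and Itga5 (-0.46 ± 0.16). Some of these levels lay near or below the free RNA. Itga11 stood at 3.92 to 6.86 CPM in type 1 cells (unsplit lists) and 1.83 to 3 in type 2 cells, against 2.57 to 5.94 in the empty droplets. In the same order, Lama2 stood at 15.9 to 32.7 and 5.5 to 18.1, against 12.9 to 48. Itga5 stood at 9.5 to 20.2 and 16.8 to 23.8, against 18.7 to 32.8. Pericytes and alveolar fibroblasts differed in 8 of 35 members, beside 11.7% of all genes. Pericytes were higher in Itga1 (2.87 ± 0.18), Itga6 (1.09 ± 0.27), Itga4 (0.92 ± 0.26) and Itga3 (0.92 ± 0.30), and fibroblasts in Itga8 (-3.94 ± 0.27), Itgb8 (-3.20 ± 0.68), Itgb5 (-0.87 ± 0.23) and Itga9 (-0.58 ± 0.20).

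The genotypes were compared within each class, to ask whether adhesion genes were changed in the ECs that carry the transgene or in their neighbors. Over the 11 classes that could be fitted, 9 of 281 pairs of a member and a class passed the test (3.2%), beside 5.21% of the pairs of all genes. Of the 9, 4 were higher in Tg mice (1.42%, beside 4.74% of all genes) and 5 were lower (1.78%, beside 0.472%). They belonged to 3 genes: Lamb2 was higher and Itgb8 and Lama2 were lower in Tg mice. The same 3 genes differed in the same direction in the empty droplets. The calls depend on single mice. With each mouse left out in turn, which leaves 1 mouse in a genotype, the number of pairs called rose without either WT mouse and fell without either Tg mouse. The share of all genes called in those fits was not counted, so these shifts are not a result about the members. With 2 mice against 2, an exact permutation test of 1 gene cannot give a p under 0.33, so that the calls rest on the spread that edgeR shares among genes.

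Blood ECs, 659 to 2009 nuclei and 2670354 to 7598144 UMIs per mouse, gave 2 calls among 36 members, beside 7.03% of all genes. The make-up of this pooled class differed between the mice. Arterial nuclei were 2.72%, 3.34%, 8.08% and 4.73% of it, aerocytes 6.6%, 5.77%, 3.49% and 3.63%, and 61.8% to 72.6% could be placed in no vessel type. The part of the make-up in the values of this class was not tested. Lamb2, which encodes a laminin beta chain of vessels, glomeruli and the neuromuscular junction, was at 13.5, 15, 43.7 and 30.4 CPM. Both Tg mice were above both WT mice, and the log2 fold change was 1.36 ± 0.27 by edgeR (adjusted p = 0.0354). It was 1.05 without Tg 1 (adjusted p = 0.264) and 1.63 without Tg 2 (0.0619), and it missed the threshold with a stricter marker score (1.35, 0.0621). Itgb8 was at 15.7, 11.2, 2.25 and 3.42, both Tg mice below both WT mice, and the log2 fold change was -2.25 ± 0.40 by edgeR (adjusted p = 0.0259), which was -2.01 without Tg 1 (adjusted p = 0.244) and -2.55 without Tg 2 (0.104). The Itgb8 values rest on 42, 33, 12 and 26 UMIs.

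The other 34 members did not pass the test in blood ECs, and their median over all 36 was -0.04 on the log2 scale against 0.02 for all genes. Among alpha subunits, Itga2, Itga6 and Itga1 had log2 fold changes of -0.62, -0.52 and -0.36, each with both Tg mice below both WT mice. Itga6 stood at 413, 358, 271 and 275 CPM. The remaining alpha subunits were Itga3 (0.35), Itga4 (-0.29), Itga5 (0.38), Itga7 (-0.89), Itga8 (0.43), Itga9 (-0.10), Itga10 (-0.01), Itga11 (0.92), Itgae (-0.22), Itgal (0.12), Itgam (-1.40), Itgav (-0.44) and Itgax (-0.01). Of these, Itga7 and Itgav also had both Tg mice below both WT mice, while Itga5, Itga8 and Itga11 had both above. The share of all genes without overlap of the genotypes was not counted. In the empty droplets Itga2 (-0.92), Itga6 (-0.44) and Itga1 (-0.22) were lower in both Tg mice too. Itgam, the farthest from 0, had its high value in 1 WT mouse, at 8.61, 45.7, 7.88 and 12.8.

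The beta subunits that did not pass were Itgb1 (0.12), Itgb2 (0.35), Itgb3 (-0.13), Itgb4 (0.62), Itgb5 (0.39), Itgb6 (-0.58) and Itgb7 (0.11), and Itgb3bp was at 0.17. Of the laminins, Lama1 (-0.87), Lama2 (-0.53), Lama3 (-0.31), Lama4 (-0.19), Lama5 (-0.08), Lamb1 (0.26), Lamb3 (0.47), Lamc1 (-0.31) and Lamc3 (0.57) did not pass either. The closest was Lama2, at 64, 65.8, 41.1 and 50 (SE 0.18, edgeR adjusted p = 0.112). Itgb1, the partner of most of these alpha subunits, was at 292, 346, 363 and 342, with the Tg mice inside or near the range of the WT mice.

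**Figure D2:**
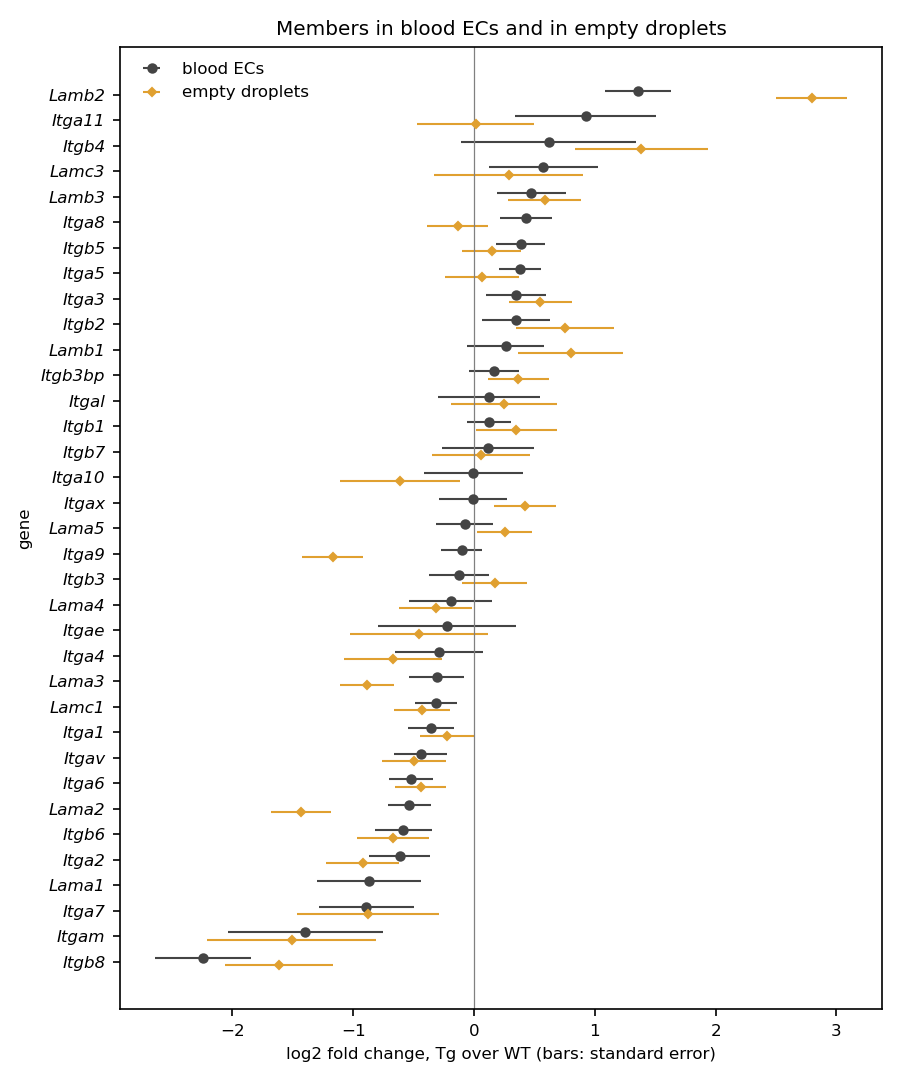
Log2 fold change, Tg minus WT, of members tested in blood ECs and in the empty droplets of the same mice (points; bars, SE). Lamb2 (1.36 and 2.80) and Itgb8 (-2.25 and -1.61) lie away from 0 on the same side in both compartments.

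In pericytes, which contact ECs through the shared basement membrane, 8 members had enough UMIs and none was called, beside 4.17% of all genes. By edgeR 0 of 8 had an unadjusted p under 0.05, beside 396 of 2756 genes, and 8 members are too few to set against that share. Lama2, at 1022, 812, 992 and 507, had a log2 fold change of -0.08 ± 0.41, and Itga1, at 1492, 967, 1199 and 954, one of 0.05 ± 0.36. Lama4 was at -0.11, Lamc1 at -0.04, Itgav at -0.02, Itgb1 at -0.29, Itga4 at -0.67 and Itga9 at -0.68. With 21 to 32 nuclei and 48387 to 134173 UMIs per mouse, standard errors were 0.357 to 0.561, which limits what could be detected at this depth. Scaling by library sizes alone moved the median of the members tested by -0.187 in this class. With the split lists there were 35 to 90 pericytes per mouse, and 0 of 15 members were called, beside 2.68% of all genes. Their median log2 fold change was -0.24, and 2 had an unadjusted p under 0.05 by edgeR, beside 702 of 4658 genes. In the interaction of genotype with the empty droplets 2 of 34 members were called there, 1 up and 1 down, beside 1.93% of all genes.

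Lamb2 was also higher in Tg mice in classes other than ECs. It stood at 7.65, 8.67, 33.5 and 24.8 CPM in alveolar type 1 cells (log2 fold change 1.83 ± 0.29, edgeR adjusted p = 0.0228), at 3.83, 9.02, 33.2 and 28.3 in T and NK cells (2.09 ± 0.39, 0.0303) and at 4.78, 17.6, 68 and 43.6 in mesothelial cells (2.19 ± 0.46, 0.0331). In these classes 1 of 36, 2 of 32 and 3 of 33 members were called, beside 6.39%, 4.03% and 7.41% of all genes. In all 7 classes in which Lamb2 was tested, both Tg mice were above both WT mice, and 4 passed. These classes come from the same 4 mice, so they are not separate repeats. The share of all genes without overlap of the genotypes was not counted. Alveolar type 2 cells (7.54, 8.23, 34.1 and 26.4, log2 fold change 1.94 ± 0.27) and alveolar fibroblasts (10.1, 5.95, 38 and 33.9, 2.19 ± 0.46) had the same order with the split lists. Without Tg 1 the log2 fold changes were 1.49, 1.99 and 1.82 in type 1 cells, T and NK cells and mesothelial cells, and none of the 3 passed (edgeR adjusted p = 0.108, 0.181 and 0.187). T and NK cells did not pass without Tg 2 (2.27, 0.102), with nuclei of at least 2500 UMIs (1.68, 0.0666) or with a marker score of at least 8 (1.63, 0.0538).

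The free RNA moved with it. In the empty droplets Lamb2 stood at 10.4, 15.4, 77.1 and 73.4 (log2 fold change 2.80 ± 0.29, edgeR adjusted p = 0.0178, and 2.59 with 0.175 without Tg 1), so that in the Tg mice the droplets without a nucleus held more Lamb2 than the blood ECs. The difference between the genotypes was smaller in blood ECs than in the empty droplets (interaction -1.38 ± 0.27 on the log2 scale, edgeR adjusted p = 0.000144), and the part of free RNA in the class values was not tested. Lamb2 (GRCm38 9:108479736-108490530, plus strand, 10.8 kb) overlaps no other annotated gene.

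The 7 classes in which Itgb8 was tested come from the same 4 mice too, and the share of all genes without overlap of the genotypes was not counted. Itgb8 had both Tg mice below both WT mice in 6 of the 7 classes, and 3 of them passed. It was at 31.6, 26.2, 3.78 and 5.45 CPM in T and NK cells (log2 fold change -2.54 ± 0.36, edgeR adjusted p = 0.0125), which was -2.42 without Tg 1 (0.0744) and -2.88 without Tg 2 (0.0597). In mesothelial cells it was at 14.3, 25.8, 2.48 and 4.69 (-2.44 ± 0.42, adjusted p = 0.0186, and -2.15 with 0.107 without Tg 1). Alveolar fibroblasts, one of the 2 classes with the highest levels of Itgb8, had 50.4, 70.4, 15.5 and 21.3 (-1.70 ± 0.335, adjusted p = 0.0123). In dendritic cells, the other such class, it was at 48.6, 31.9, 65 and 46.4, the genotypes overlapped, and the log2 fold change of 0.57 did not pass (edgeR adjusted p = 0.615). The interaction of dendritic cells with the empty droplets did not pass either (2.02, adjusted p = 0.166), so a difference of this class from the free RNA was not shown. The empty droplets held 9.54, 7.56, 1.75 and 3.59, a log2 fold change of -1.61 ± 0.45 (adjusted p = 0.0424) from 53, 54, 22 and 7 UMIs, and with DESeq2 this call was lost (adjusted p = 0.0721), as it was without WT 1 (0.0733), Tg 1 (0.31) or Tg 2 (0.0805). Itgb8 lies at 12:119158022-119238802 (minus strand, 80.8 kb) and overlaps no other gene.

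**Figure D3:**
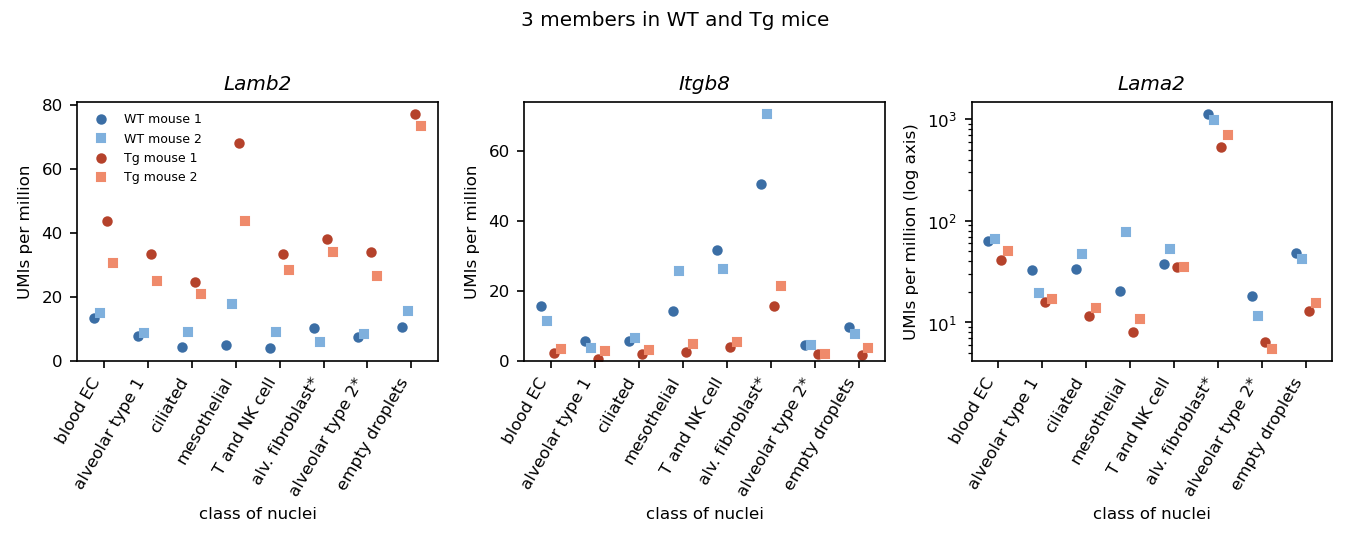
Levels of Lamb2, Itgb8 and Lama2 (CPM, on a log axis for Lama2) in 7 classes and in the empty droplets, 1 point for each mouse and genotypes by color. Lamb2 is higher in both Tg mice throughout (empty droplets, 73.4 and 77.1 against 10.4 and 15.4). Itgb8 and Lama2 are lower in both Tg mice throughout, and Lama2 is far higher in alveolar fibroblasts than in the other classes shown.

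Lama2 was lower in Tg mice in ciliated and mesothelial cells, and with the split lists in type 2 cells, all of which hold little of it. It was at 33.6, 47.5, 11.7 and 13.9 in ciliated cells (log2 fold change -1.70 ± 0.255, edgeR adjusted p = 0.0323), where 1 of 36 members was called beside 3.02% of all genes, and at 20.5, 76.9, 8.07 and 10.8 in mesothelial cells (-2.38 ± 0.52, adjusted p = 0.0373). In the latter the WT 2 mouse had a high value, and without it the log2 fold change was -1.14 (adjusted p = 0.0784). Without Tg 1 or Tg 2 neither class passed (ciliated -1.61 and -1.79, mesothelial -2.24 and -2.57, adjusted p from 0.099 to 0.471). In alveolar type 2 cells it was at 18.1, 11.6, 6.46 and 5.5 (-1.31 ± 0.345, adjusted p = 0.0488). The empty droplets went from 48 and 42 in WT to 12.9 and 15.4 in Tg mice (-1.43 ± 0.25, adjusted p = 0.0184, lost without Tg 1 at 0.202 and without Tg 2 at 0.0624). In the classes rich in Lama2 the test was not passed: alveolar fibroblasts were at 1126, 977, 527 and 696, both Tg mice below both WT mice (-0.79 ± 0.24, edgeR adjusted p = 0.0784), and in pericytes the genotypes overlapped. Dendritic cells, which hold little, had the opposite order at 20.8, 15.9, 37.9 and 37.4 (1.17 ± 0.59, adjusted p = 0.34). Lama2 lies at 10:26980036-27619758 (minus strand) and, at 639.7 kb, is a very long gene.

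Besides these, Lamb3 was higher in alveolar fibroblasts of Tg mice, at 13, 12.9, 80.3 and 30 (log2 fold change 2.05 ± 0.52, edgeR adjusted p = 0.0411), with the highest value in the Tg 1 mouse. Itgb2l, a relative of Itgb2, was higher in alveolar type 2 cells of Tg mice at 0.905, 2.13, 8.86 and 9.22 (2.55 ± 0.47, adjusted p = 0.018), from 3, 7, 59 and 52 UMIs. In alveolar fibroblasts 3 of 27 and in type 2 cells 3 of 36 members were called, beside 6.33% and 12.4% of all genes. In B cells, alveolar macrophages, dendritic cells, lymphatic ECs, and monocytes and interstitial macrophages, 0 of 100 pairs were called, beside 4.62% of all genes.

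In the empty droplets 5 of 36 members were called, beside 25.6% of all genes, and the 2 not yet given were Itga9 and Lama3. Itga9 was at 383, 368, 122 and 163 (log2 fold change -1.17 ± 0.25, edgeR adjusted p = 0.0245, lost without Tg 1 at 0.204 and without Tg 2 at 0.0727) and Lama3 at 70.5, 74.2, 32.1 and 33.3 (-0.89 ± 0.22, adjusted p = 0.0337, lost without each of the 4 mice in turn). In type 1 cells Lama3 was at 845, 787, 743 and 743 (log2 fold change -0.14). In lymphatic ECs Itga9 was at 1129, 810, 541 and 710, both Tg mice below both WT mice, and the log2 fold change of -0.49 ± 0.28 did not pass (edgeR adjusted p = 0.442). Scaling by library sizes alone moved the median of the members in the empty droplets by -0.252 and kept all 5 calls.

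Gene length moved with the genotype in every compartment. The share of UMIs from genes over 100 kb was 35.6%, 31.5%, 12.2% and 17.7% in the empty droplets and 44.4%, 42.3%, 32% and 36% in blood ECs, and both Tg mice were below both WT mice in all 5 named classes measured. In the empty droplets the median log2 ratio of Tg to WT was 0.39 over 6599 genes under 20 kb and -1.14 over 2224 genes over 100 kb, and in blood ECs it was 0.43 and -0.35. Lamb2 is among the short genes, Lama2, Itga9 and Lama3 among the long ones, and Itgb8 lies between. The mitochondrial share in the empty droplets was higher in Tg mice, 0.126% and 0.151% in WT against 0.785% and 0.685%, and the summed markers of alveolar type 2 cells in the empty droplets were 6354, 8317, 21778 and 20643 CPM. Of those 10 markers, 6 were higher and 2 lower in both Tg mice, and none was at 0. The 7 markers of alveolar fibroblasts, a class rich in Lama2 and Itgb8, summed to 68.6, 78.8, 64.4 and 66.7 in the empty droplets, with 0 higher and 2 lower in both Tg mice. Inside the 5 classes with genotype calls these signs moved too. The type 2 markers summed to 2044 to 4611 CPM in WT and 5380 to 10164 in Tg mice (blood ECs, 3351, 4355, 10164 and 9365), with 5 to 7 of the 10 higher and 0 or 1 lower in both Tg mice, and the mitochondrial share was 0.037% to 0.0987% in WT and 0.2% to 0.372% in Tg mice. Nuclei of T and NK, type 1, ciliated and mesothelial cells held a median of 30 to 38 UMIs of club cell markers in WT and 60 to 145 in Tg mice. The summed fibroblast markers were higher in both Tg mice in blood ECs (79.8, 109, 139 and 122) and in T and NK cells (66.2, 67.4, 129 and 109). Of the 7 markers, 2 were higher and 1 lower in both Tg mice in blood ECs, and 3 were higher and 0 lower in T and NK cells. The sum overlapped between the genotypes in the other 3 classes. The part of length, free RNA, RNA quality and these cells in the differences of Lamb2, Itgb8 and Lama2 was not tested.

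**Figure D4:**
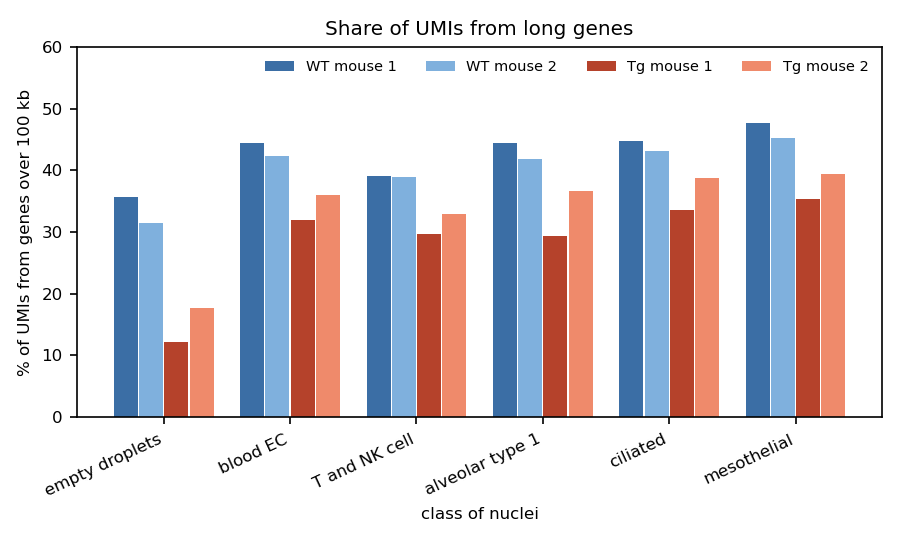
Share of UMIs from genes longer than 100 kb (percent, axis from 0) in the empty droplets and in 5 classes, 1 bar for each mouse. In the empty droplets the Tg mice hold 12.2% and 17.7% and the WT mice 31.5% and 35.6%.

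Tested against the empty droplets of the same mice, 20 of 381 pairs of a member and a class differed in their change between genotypes, beside 6.6% of all genes, and with the split lists 5 of 71 in the additional 2 classes, beside 11.7%. None of the 19 that could be tested with empty droplets of 300 to 500 UMIs, of which each mouse had only 96 to 620, was called there. In blood ECs the change of Itga9 was 1.12 ± 0.17 above that of the free RNA and in type 1 cells 1.34 ± 0.175, where the level itself was nearly the same in both genotypes (380, 449, 394 and 504 in type 1 cells). In ciliated cells the collagen receptor subunit Itga11 (79.3, 51.7, 226 and 124, log2 fold change 1.37 ± 0.37, edgeR adjusted p = 0.105 within the class) changed by 1.39 more than the free RNA, whose levels overlapped. Without WT 1 or without Tg 1 this missed the threshold (1.48 with adjusted p = 0.0573 and 1.73 with 0.159).

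Other genes of cell-matrix adhesion came from 4 lists, which were chosen with earlier results of these data known. Their counts stand beside 5.21% of all genes called within the classes (4.74% higher and 0.472% lower in Tg mice) and 25.6% in the empty droplets. Of the other basement membrane genes (type IV collagens, nidogens, perlecan and relatives), none of 97 pairs of a gene and a class was called by edgeR between the genotypes, although in the empty droplets Col4a1 and Agrn were higher (0.77 and 0.76 on the log2 scale) and Col4a6 lower (-1.47). Of the other integrin ligands, 2 of 127 were lower in Tg mice, Vcam1 (-1.90) and Cdh1 (-0.83), both in mesothelial cells, and in the empty droplets Icam2 (2.35), Postn (1.41), which is also a pericyte marker here, and Emilin1 (1.37) were higher. Cdh1 stood at 171, 161, 78.2 and 107 CPM in mesothelial cells and at 509, 425, 185 and 243 in the empty droplets, where it was not called. The genotypes overlapped for Vcam1 in the empty droplets. Of the proteins that link integrins to actin, 3 of 176 pairs were higher, all of Ilk, the integrin-linked kinase, in B cells (1.92), mesothelial cells (1.30) and type 1 cells (0.92). In the empty droplets 4 linkers were higher, among them Ilk (1.68), Tln1 (1.65) and Zyx (1.47), and 2 lower, of which Itgb1bp2 (-1.86) was farther from 0.

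Of the laminin receptors other than integrins, 12 of 80 pairs were higher and none lower, where 4.74% of the pairs of all genes were higher and 0.472% lower. Bcam, the Lutheran receptor for the laminin alpha 5 chain, accounted for 10 of them. It was higher in Tg mice in 11 of 11 classes, all from the same 4 mice, by 0.85 to 1.98 on the log2 scale. The ribosomal protein gene Rpsa made up the other pairs, in lymphatic ECs (1.26) and in monocytes and interstitial macrophages (1.44). In blood ECs Bcam stood at 76.4, 90, 176 and 169 CPM (log2 fold change 1.03 ± 0.17, edgeR adjusted p = 0.0209) and was the only gene of the 4 lists called there. The empty droplets held 96.1, 111, 299 and 323 (1.83 ± 0.26), above the blood ECs in every mouse, while Utrn (-1.01) and Dmd (-0.82), very long genes of the laminin-binding dystroglycan complex, were lower there.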

How the data were processed

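RNA of single lung nuclei was measured in 2 WT and 2 VEcad-TRF2DN-Tg mice. The deposited files hold UMI counts by gene for all barcodes of a mouse, raw and without any filter. Per the submitters' processing notes, Cell Ranger 6.1.1 and the mm10 build were used, and the paper states that introns were counted. How strand was used is not given in the sources used here, so overlapping genes on either strand may share reads. The paper's removal of doublets and free RNA is not part of these matrices. Library totals were 125261739 to 182014706 UMIs. Levels are CPM, and their precision is limited by the UMI numbers and the 4 mice. Gene positions and lengths come from a GENCODE annotation of GRCm38, which had 32158 (99.6%) of the genes.

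Barcodes with at least 1500 UMIs and at most 5% mitochondrial UMIs were scored against the empty droplets of their mouse, those with 300 to 800 UMIs. A class needed a marker score (z) of at least 4, with 3 different markers and 4 marker UMIs, and a second score of at most 0.5 of the first. This removed 220 to 867 barcodes per mouse with markers of 2 lineages, doublets included, and no doublet caller was run. Between 646 and 1104 nuclei per mouse lay within 1 of the minimum score. These cuts named ECs and mesenchymal nuclei, mesothelial cells included, only as a whole. Their types, lymphatic ECs and pericytes among them, were set at a looser second level. It needed a score of at least 2, 2 marker UMIs and a second score of at most 0.5 of the first, and other nuclei stayed unresolved. With the split lists, mesenchymal types were scored at the first level instead. The split marker lists were an addition made with the data in view. UMIs were summed per class and mouse where every mouse had 20 nuclei. Sums were filtered with filterByExpr (minimum 10), scaled by TMM and tested two-sided with edgeR 4.0.16 (limma 3.58.1, R 4.3.3), with Benjamini-Hochberg adjustment over all genes and a threshold of 0.05. Classes were compared with the mouse as a block in 11761 genes (12684 with the split lists), and genotypes within each class. The interaction of genotype and compartment had the mouse as a block. SE is the log2 fold change divided by the root of F. The p-values of genotype tests within a class or in the empty droplets rest on the spread between these mice, shared among genes. Those of the class comparisons and of the interaction rest on the spread that remains after the mouse is taken out as a block. In simulated counts 98% of 200 genes changed 4-fold were recovered for genotypes in blood ECs (14150 genes, 7.98% of calls false), 63.5% for the interaction (15205 genes, 6.62% false) and 98.4% of 191 for venous ECs against the empty droplets (10928 genes, 3.09% false). Apart from the changed genes, all simulated mice had the same mean profile, without the shift by gene length. For venous ECs every class had the profile of the empty droplets. The rates of the real tests may therefore differ.

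Named were every member with at least 100 UMIs with its highest class, every member called between genotypes, every member tested in blood ECs and pericytes with the unsplit lists, and up to 4 genes of each adhesion list by the size of their change. Members and lists were chosen with earlier results of these data known. The samples share replicate numbers, but no source ties a number to a litter or day, so no pairing was used. Alternatives were at least 2500 UMIs, a score of at least 8, the split lists, empty droplets of 300 to 500 UMIs, library sizes alone, no filter, DESeq2 1.42.0, a replicate block and each mouse left out. Figures were drawn with matplotlib 3.10.9 (Python 3.11.15). The values of 1 member are not reported here, although it is among the counts.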

Additional observations from a re-analysis of the deposited data

Results flagged for a closer look

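In 20 pairs of a member and a class the change between genotypes differed from that of the empty droplets of the same mice (edgeR's test of the interaction; values on the log2 scale, Tg minus WT in the class minus the same in the empty droplets). Itga9 was above the free RNA in 6 classes, by 1.05 in B cells, 0.95 in T and NK cells, 1.34 in alveolar type 1 cells, 1.12 in blood ECs, 0.79 in ciliated cells and 0.82 in mesothelial cells. The free Itga9 RNA itself was lower in Tg mice, at 383, 368, 122 and 163 CPM. Lama2 was above it by 0.98 in T and NK cells, 0.89 in type 1 cells, 0.90 in blood ECs and 2.44 in dendritic cells. With empty droplets of 300 to 500 UMIs none of the 19 that could be tested was called (dendritic cell Lama2 could not be tested), and Lama2 turned to -1.93, -1.83 and -1.91 in the first 3 of these classes, and with the split lists it was -0.02 in T and NK cells. Lama3 was above it by 0.83 in type 1 cells and 0.66 in blood ECs, and Itga8 by 0.65 in blood ECs. Lamb2 had values of -0.86 in type 1 cells and -1.38 in blood ECs, where its rise was smaller than that of the free RNA.

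In T and NK cells Itgal (-0.72) and Itgb2 (-0.70), the 2 subunits of the same leukocyte integrin, had values below the free RNA, and in alveolar macrophages Itgax did (-0.86). Within their classes none of these 3 was called between genotypes. In ciliated cells Itga11 (1.39) and Itgb3bp (0.85) were above the free RNA. Itga9 and Lama3 in type 1 cells and Itga9 and Lamb2 in blood ECs kept their call with each mouse left out in turn, and the other 16 lost it without at least 1 mouse.

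Of the 38 members examined for a single mouse apart in their highest class, 1 was found: Itgb6 in alveolar type 1 cells, with 401 CPM in WT 1 against 231, 215 and 247 in the others. Chance marks about 1 in 20 such groups.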

How the results depend on the processing

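Of the 9 genotype calls within classes, all were kept with DESeq2, library sizes alone, no filter, the split lists and the replicate block, 8 with at least 2500 UMIs and 7 with a marker score of at least 8, while 16 of 36 values with a mouse left out lost significance and none changed direction. Outside the split lists, the share of all genes called was not counted for any altered setting in this section. The shifts in number are therefore not a result about the members. The number of genotype calls within classes moved more than these 9. It was 16 with the split lists (13 classes), 14 with library sizes alone, 24 without the filter and 18 with the replicate block, and 0 to 26 with a mouse left out. The numbers of the replicates were not shown to pair mice. In the empty droplets there were 5 calls, but 1 with 300 to 500 UMIs (96 to 620 barcodes per mouse, 7 members tested), which was none of the 5, as the single one tested there lost its call, and 9 without the filter, with a range of 0 to 8 with a mouse left out. The 20 calls beyond the empty droplets became 12 with a score of at least 8, 0 with empty droplets of 300 to 500 UMIs, where 19 of them could be tested, and 34 with library sizes alone, and 7 to 20 with a mouse left out. Lama2 reversed there, in T and NK cells (-0.02 with the split lists and -1.93 with 300 to 500 UMIs), type 1 cells (-1.83) and blood ECs (-1.91, both with 300 to 500 UMIs). In those droplets the UMIs are few, and the cause was not tested. The 259 pairs called higher or lower against the empty droplets became 143 with a score of at least 8, where 7 of 14 classes were left, and 137 with 300 to 500 UMIs. Differences between related classes went from 10 to 32 with the split lists, where 4 pairs of classes in place of 2 were tested. The planned pairs with alveolar type 2 cells and alveolar fibroblasts could be tested only there. Tests of the highest class against the other classes kept their call in 122 of 124 values with a mouse left out, for the 31 members called. The class and these members were picked with all 4 mice, so this count is a description.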
